A study of Mus musculus with 11 samples.

Results

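The transcribed pseudogenes were the rows of the exon read table whose gene type contains the word pseudogene and whose mean over the 5 libraries was 10 reads or more. This gave 59 of the 13088 genes in the table, out of 63 pseudogene rows. The 4 rows left out were Gm5069 (mean 9.05), Gm28356 (0.687), Clca4c-ps (0.382) and Gm10593 (0 in every library). The members with the lowest means were Gm4032 (10.6), Gm18800 (10.8) and Mfsd4b3-ps (12.6).

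Newly made RNA was measured by TT-seq (transient transcriptome sequencing): cells take up 4-thiouridine (4sU), and RNA that carries it is fragmented and pulled down before sequencing. The cells were wild-type F121-9, an established female mouse embryonic stem cell line of a CAST/129 hybrid background, grown on gelatin in serum-free medium with LIF and inhibitors of MEK and GSK3. They received 30 nM of an siRNA against Zc3h4 (siZC3H4, 2 libraries, replicates 2 and 3) or of a non-targeting siRNA (siNT, 3 libraries, replicates 1, 2 and 3). All had 500 µM 4sU in the medium for 20 minutes and were collected 47 hours after transfection. ZC3H4 works with WDR82 as Restrictor, a complex that cuts short the transcription of many noncoding RNAs, and the series asks how sequence shapes this. The other samples of the series, cells with a degradable ZC3H4, were not analysed here.

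A pseudogene is a copy or remnant of a gene that has lost the ability to make the original protein. Processed pseudogenes arise when an mRNA is reverse transcribed and inserted elsewhere, so they lack the parent's introns and promoter, whereas unprocessed pseudogenes arise by duplication of genomic DNA and can keep both. Unitary pseudogenes are disabled genes with no working copy left in the species, and polymorphic ones are intact in some strains and disabled in others. RNA from a pseudogene has to start at a promoter that was kept, gained or borrowed from a neighbour, and transcripts with early stop codons are often short-lived in the cytoplasm.

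By the table's gene types, 27 members were transcribed unprocessed, 19 transcribed processed, 6 transcribed unitary and 6 polymorphic pseudogenes, and 1 was a processed pseudogene. The type is that of the annotation behind the deposited table. In RefSeq (GRCm38.p6) 56 of the 59 were found by symbol, of which 38 were pseudogenes there, 10 protein-coding, 6 lncRNAs and 2 miscellaneous RNAs. The 2 members with the largest changes were not pseudogenes in RefSeq: C920006O11Rik was an lncRNA and Gm1070 protein-coding there. The members lay on 18 chromosomes.

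The sequences below are promoter windows from RefSeq (GRCm38.p6), from 250 bases before to 50 bases after the annotated start, for 2 of the pseudogenes that changed most and for 2 promoters shared by a pseudogene and a gene that starts on the opposite strand. Capitals mark matches on either strand to TATAAA (a core promoter box), CCAAT (bound by NF-Y), GGGCGG (bound by Sp family factors), CCGGAAG (bound by ETS family factors), TGACGTCA (the cyclic AMP response element) and GGTAAG (the core of a 5′ splice site), and no match in these 4 windows overlapped another. The window of C920006O11Rik is chr9:78175664-78175963 on the plus strand, and that of Gm1070 is chr6:71293515-71293814 on the plus strand.
C920006O11Rik: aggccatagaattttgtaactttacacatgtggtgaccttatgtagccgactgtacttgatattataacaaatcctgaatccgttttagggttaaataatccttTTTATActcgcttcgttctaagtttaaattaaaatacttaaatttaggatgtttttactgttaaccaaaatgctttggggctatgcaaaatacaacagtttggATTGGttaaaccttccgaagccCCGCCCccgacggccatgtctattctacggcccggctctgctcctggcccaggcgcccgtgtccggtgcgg
Gm1070: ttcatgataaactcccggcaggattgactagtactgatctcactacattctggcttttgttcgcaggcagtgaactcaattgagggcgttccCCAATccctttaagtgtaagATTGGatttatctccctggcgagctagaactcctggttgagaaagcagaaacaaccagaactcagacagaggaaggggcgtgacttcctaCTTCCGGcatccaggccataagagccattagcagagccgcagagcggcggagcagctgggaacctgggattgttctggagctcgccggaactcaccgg
The window of Nme6, chr9:109832544-109832843 on the plus strand, holds the start of 3000002C10Rik, which runs the other way from 59 bases before the Nme6 start. The window of Zfp939, chr7:39449268-39449567 on the plus strand, holds the start of Gm5590, which runs the other way from 194 bases before the Zfp939 start. Zfp939 and Gm5590 are both members.
Nme6: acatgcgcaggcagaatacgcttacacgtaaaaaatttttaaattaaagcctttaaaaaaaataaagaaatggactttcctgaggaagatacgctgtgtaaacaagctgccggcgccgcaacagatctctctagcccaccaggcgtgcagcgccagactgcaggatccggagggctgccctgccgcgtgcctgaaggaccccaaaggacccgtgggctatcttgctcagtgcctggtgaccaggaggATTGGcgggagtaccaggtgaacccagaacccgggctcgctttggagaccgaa
Zfp939: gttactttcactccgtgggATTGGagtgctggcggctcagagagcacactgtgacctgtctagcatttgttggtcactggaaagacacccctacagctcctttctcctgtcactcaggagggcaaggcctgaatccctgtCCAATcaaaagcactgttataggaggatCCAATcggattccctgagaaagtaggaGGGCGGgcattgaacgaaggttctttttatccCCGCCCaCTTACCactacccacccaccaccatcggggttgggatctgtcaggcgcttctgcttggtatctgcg

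The C920006O11Rik window held a reversed TATAAA beginning 146 bases before the RefSeq start, a reversed CCAAT at 43 bases and a reversed GGGCGG at 21 bases. The Gm1070 window held CCAAT at 158 bases and reversed at 138 bases, and a reversed CCGGAAG at 48 bases. Of 32851 RefSeq mouse promoter windows of this length, 13.6% held TATAAA, 37.4% CCAAT, 35.7% GGGCGG, 8.86% CCGGAAG, 1.79% TGACGTCA and 9.67% GGTAAG on either strand. The Nme6 window held 1 of these motifs, a reversed CCAAT 3 bases before the Nme6 start. The Zfp939 window held CCAAT on both strands, GGGCGG on both strands and a reversed GGTAAG 16 bases before the Zfp939 start. The windows of C920006O11Rik, Gm1070, Nme6 and Zfp939 held 14, 12, 17 and 9 CpG dinucleotides, against a median of 7 over all windows. A match is a run of letters, and binding was not measured.

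Values are the deposited exon reads, divided by the authors' depth factor of each library. Before that division, libraries held 26548710 and 16173640 exon reads in the siZC3H4 group and between 14840637 and 18479834 in the siNT group. Every pair of replicates within a group differed beyond sampling noise, so each counted as its own sample. The labels do not state separate cultures, and p-values measure only the spread between these samples, which may be technical. Changes are limma log2 fold changes of log2(value + 1), siZC3H4 minus siNT, with moderated standard errors (SE), fitted on all 12482 genes with a mean of 10 or more, and "rose" or "fell" means a Benjamini-Hochberg adjusted p under 0.05 in that fit. Nascent exon reads of the targeted gene were higher under the siZC3H4 label. Zc3h4 had 7285 and 6718 reads in the libraries labelled siZC3H4, against 3465, 3610 and 3363 in the siNT libraries. The log2 difference was 1.01 ± 0.11 (SE, limma adjusted p = 0.00431). These reads come from newly made RNA, and neither total mRNA nor protein was measured here. Whether the siRNA lowered Zc3h4 therefore cannot be told from them, and every direction below is that of libraries labelled siZC3H4. The limma adjusted p of Zc3h4 became 0.0549 when siNT replicate 1 was left out and 0.0578 when siZC3H4 replicate 2 was. Wdr82, the partner of Zc3h4, had 8778 and 9974 reads against 8967, 8088 and 9450 (0.09 ± 0.12, adjusted p = 0.835). All 8 stem cell markers were in the table, with summed reads of 75986 to 92314 in siZC3H4 and 89522 to 106425 in siNT libraries. Of the fibroblast list 3 of 7 markers were in the table (Col1a1, Col1a2, Col3a1 and Postn were not), summing to 30350 to 31587 against 29217 to 34705. Most of this sum was Fn1 (27946 and 29681 against 27836, 32718 and 32615), at a log2 fold change of -0.10. Vim was at 0.40 and Thy1 at -0.18, and none of the 3 passed. The endoderm list (3 of 5 in the table) summed to 5001 to 6062 against 7488 to 8815, nearly all of it Lama1 (4934 and 5954 against 7419, 8789 and 7522), while Gata4 and Gata6 were at log2 fold changes of 0.64 and 0.44, and none of the 3 passed. The trophoblast list (3 of 6) summed to 2260 to 2323 against 1921 to 2466, most of it Tfap2c. The neural list (4 of 4) summed to 1892 to 1944 against 1310 to 1595, most of it Tubb3 and Nes. None of the genes in these lists passed. The part of other cell types in the results below was not tested. In bulk RNA, fewer cells that make a transcript and less of it per cell cannot be told apart.

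Pseudogene RNA was a small part of the nascent exon RNA. The 59 members took 0.09996% and 0.0965% of exon reads in the libraries labelled siZC3H4 and between 0.0838% and 0.0905% in the siNT libraries. Both shares in libraries labelled siZC3H4 lay above all 3 siNT shares. Without C920006O11Rik and Gm1070, left out after their values were seen, the shares were 0.0897% and 0.0888%, against 0.0880%, 0.0858% and 0.0817% in the siNT libraries. Per kilobase of transcript, and over all 5 libraries, the median member had 69.3 depth-normalised reads, between the medians of 62.8 for lncRNAs and 212 for protein-coding genes, and members ranged from 5.67 to 1782. Transcript lengths ran from 196 to 7768 bases with a median of 1452.

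Of the 59 pseudogenes, 3 rose, none fell and 56 stayed short of the threshold. The 3 that rose are 5.08% of the members, against 2.22% of all genes tested that rose and 0.144% that fell. At an unadjusted p under 0.05 limma gave 13 members higher and 4 lower, out of 1367 genes higher and 548 lower among all 12482. edgeR on the recovered whole reads called 4 members higher and 0 lower, against 2.47% and 0.24% of all genes. DESeq2 called 4 higher and 1 lower, against 4.24% and 1.17% of all genes. By levels alone, 20 members (33.9%) had both libraries labelled siZC3H4 above all 3 siNT libraries, against 19.5% of all genes tested, and 8 members (13.6%) had both below, against 12.8%. The median log2 fold change of the members was 0.09, with quartiles of -0.06 and 0.65, and 38 of 59 (64.4%) were above 0. Above 0 were 52.5% of all genes tested, 50.9% of protein-coding genes and 77.4% of lncRNAs. The median was 0.01 over all genes tested, 0.01 over protein-coding genes and 0.42 over 771 lncRNAs, of which 11.2% rose. These medians describe the lists, and their differences were not tested.

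**Figure D1:**
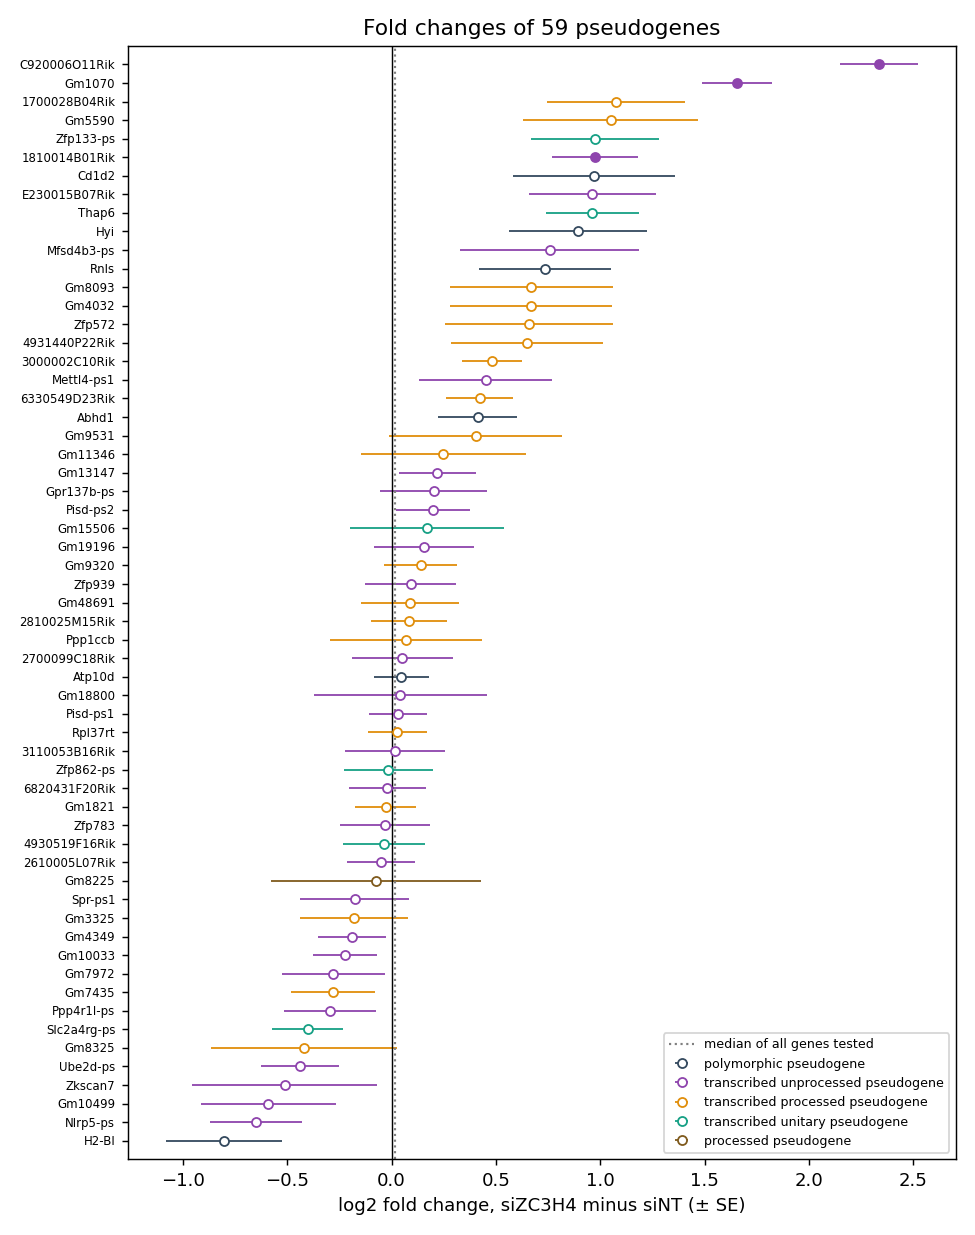
Fold changes of all 59 pseudogenes, sorted, as limma log2 fold change siZC3H4 minus siNT on the horizontal axis with bars of 1 SE; colours give the gene type and filled points the 3 members that rose. C920006O11Rik (2.34) and Gm1070 (1.66) stand at the top, the other members lie between -0.80 and 1.07, and the dotted line is the median of all genes tested, 0.01.

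C920006O11Rik was the member with the largest change (transcribed unprocessed, ENSMUSG00000097574, chr9:78175947-78178879, plus strand, mm10). It had 768 and 580 reads in the libraries labelled siZC3H4, against 140, 126 and 129 in the siNT libraries. The lowest library labelled siZC3H4 stood far above the highest siNT library, and the siNT libraries lay close together. The means were 674 ± 133 (SD, n = 2) and 132 ± 7.37 (SD, n = 3), and the log2 fold change was 2.34 ± 0.19 (SE), or 5.05-fold (limma adjusted p = 0.00182). Its adjusted p was 0.0517 in 1 of the 5 fits that each leave out a library, the fit without siNT replicate 1, with log2 fold changes of 2.13 to 2.54 over those fits.

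In RefSeq, Rn7sk, the 7SK RNA that holds the elongation factor P-TEFb in an inactive complex, ends 314 bases before the table's C920006O11Rik start (chr9:78175302-78175633). Reads of Rn7sk are in neither table used here, so whether RNA that continues past its end adds to C920006O11Rik was not tested. The nearest upstream gene of the table on the same strand was Ick, a kinase of cilia, which ends 3840 bases before the start. Ick had 570 and 549 reads in the libraries labelled siZC3H4, against 558, 622 and 660 in the siNT libraries. Its log2 fold change of -0.13 ± 0.14 (SE) did not pass the test (limma adjusted p = 0.776), and its libraries overlapped between groups.

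Gm1070 was second (transcribed unprocessed, ENSMUSG00000073018, chr6:71293765-71302880, plus strand). It had 766 and 614 reads in the libraries labelled siZC3H4, against 223, 223 and 205 in the siNT libraries, and the groups were again far apart. The means were 690 ± 107 (SD, n = 2) and 217 ± 10.7 (SD, n = 3), a log2 fold change of 1.66 ± 0.17 (SE), or 3.15-fold (limma adjusted p = 0.00355). Leaving out 1 library at a time gave 1.50 to 1.81, and the adjusted p stayed under 0.05 in 3 of 5 such fits and reached 0.0536. The call was lost when siNT replicate 1 or siZC3H4 replicate 2 was left out. Krcc1, a coiled-coil protein gene, ends 8446 bases upstream on the same strand. It had 86.6 and 103 reads in the libraries labelled siZC3H4, against 65, 30.4 and 95.6 in the siNT libraries, and 0.71 ± 0.42 (SE, limma adjusted p = 0.496) did not pass the test.

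The third, 1810014B01Rik, changed less (transcribed unprocessed, ENSMUSG00000097412, chr10:86685591-86689954, plus strand). It had 153 and 154 reads in the libraries labelled siZC3H4, against 75, 79.1 and 78.5 in the siNT libraries, with replicates of each group close together. Its log2 fold change was 0.98 ± 0.21 (SE, limma adjusted p = 0.0458). Leaving out 1 library kept the size, 0.95 to 0.99, but the adjusted p stayed under 0.05 in 1 of 5 such fits, the one without siNT replicate 3, and reached 0.392. Its end lies 887 bases from that of Hsp90b1, the chaperone GRP94 of the endoplasmic reticulum, which runs toward it on the minus strand (chr10:86690841-86705462) and was looked up after the values were seen. Hsp90b1 had 4205 and 3866 reads in the libraries labelled siZC3H4, against 4745, 5383 and 4701 in the siNT libraries, and -0.29 ± 0.12 (SE, limma adjusted p = 0.276) did not pass the test. For C920006O11Rik, Gm1070 and 1810014B01Rik the table held no gene that overlapped them or started within 5 kb.

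**Figure D2:**
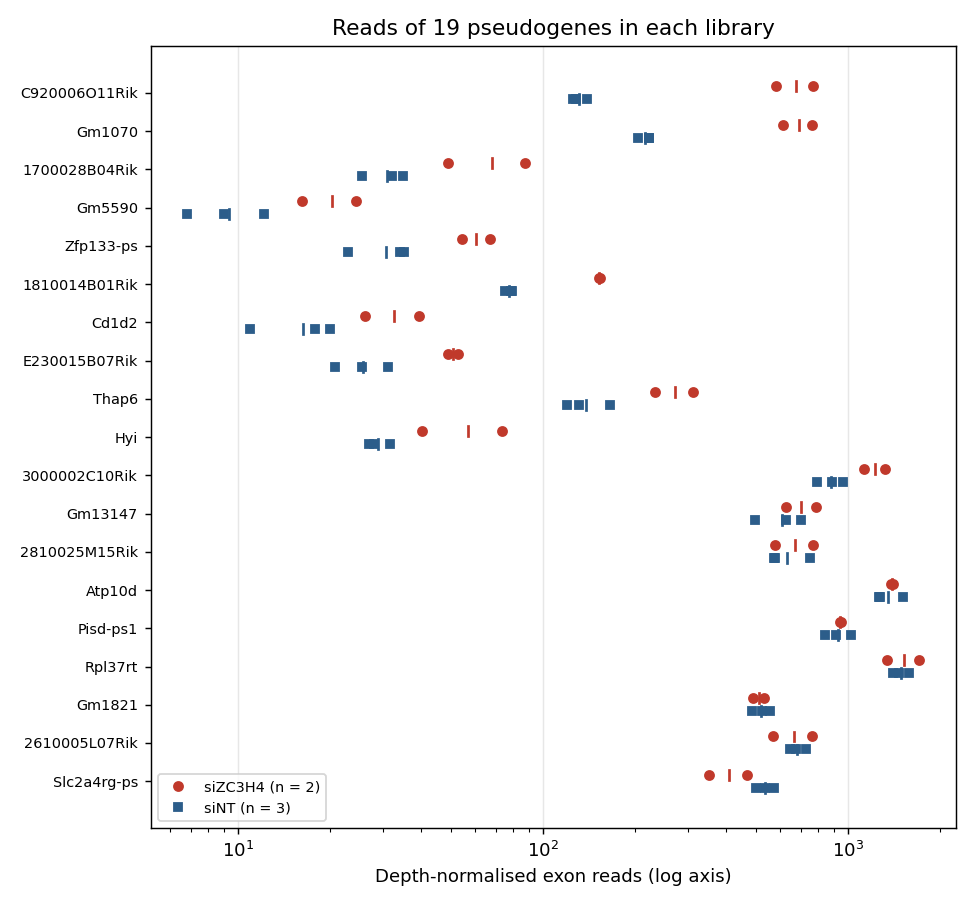
Depth-normalised exon reads (log axis) in each library for the 19 pseudogenes with the 10 highest means or the 10 largest changes, sorted by fold change; circles are libraries labelled siZC3H4, squares siNT libraries and short lines group means. The groups are apart in the upper 11 rows, from C920006O11Rik to 3000002C10Rik, and in the lowest, Slc2a4rg-ps, where siZC3H4 lies lower; the rows between them overlap.

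Thap6, a unitary pseudogene in this table and a gene of a family of THAP zinc finger proteins, had 233 and 311 reads in the libraries labelled siZC3H4, against 120, 131 and 166 in the siNT libraries. The groups did not overlap, and its log2 fold change of 0.96 ± 0.22 (SE) lay just outside the threshold (limma adjusted p = 0.0590). Among the fits without a replicate block, edgeR, DESeq2, limma scaled by the median of ratios and limma without siNT replicate 3 called it higher. The other 6 of the 10 largest changes had far fewer reads and did not pass. 1700028B04Rik had 87.7 and 48.8 reads in libraries labelled siZC3H4, against 32, 34.8 and 25.6 in siNT libraries (1.07 ± 0.33, SE). Gm5590 had 24.3 and 16.3 reads, against 9, 12.2 and 6.83 in siNT libraries (1.05 ± 0.42).

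Zfp133-ps, a disabled zinc finger gene, had 54.3 and 66.9 reads in libraries labelled siZC3H4, against 35, 33.9 and 23 in siNT libraries (0.98 ± 0.31). Cd1d2, which in strains with an intact copy encodes a lipid-presenting molecule, had 26 and 39.2 reads, against 11, 20 and 17.9 in siNT libraries (0.97 ± 0.39). E230015B07Rik had 52.6 and 48.8 reads, against 31, 20.9 and 25.6 in siNT libraries (0.96 ± 0.30). In each of these 3 every library labelled siZC3H4 was above every siNT library. Hyi, a hydroxypyruvate isomerase gene that counts as polymorphic here, had 73.6 and 40.2 reads, against 28, 27 and 31.6 in siNT libraries (0.90 ± 0.33), with its 2 libraries labelled siZC3H4 well apart. limma's adjusted p for these 6 members lay between 0.148 and 0.271.

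The pseudogenes with the most reads changed little. Rpl37rt, a retrotransposed copy of the ribosomal protein gene Rpl37, had 1711 and 1342 reads in the libraries labelled siZC3H4, against 1470, 1588 and 1411 in the siNT libraries (0.03 ± 0.14, SE), and the groups overlapped. Atp10d, a lipid-transporting ATPase gene typed as polymorphic, had 1385 and 1405 reads, against 1269, 1517 and 1279 in siNT libraries (0.05 ± 0.13). Pisd-ps1 had 947 and 943 reads, against 1026, 917 and 840 (0.03 ± 0.14). Each of these 3 had libraries labelled siZC3H4 inside the range of the siNT libraries or across it.

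3000002C10Rik was the exception among the abundant members apart from Gm1070, in that its groups did not overlap with siZC3H4 higher. It had 1328 and 1131 reads in the libraries labelled siZC3H4, against 961, 791 and 889 in the siNT libraries, and 0.48 ± 0.14 (SE) did not pass (limma adjusted p = 0.133). Gm13147 (625 and 784 against 495, 701 and 626 reads; 0.22 ± 0.18), 2810025M15Rik (766 and 577 against 572, 750 and 577 reads; 0.08 ± 0.18), 2610005L07Rik (569 and 764 against 646, 728 and 677 reads; -0.05 ± 0.16) and Gm1821 (532 and 489 against 524, 484 and 555 reads; -0.03 ± 0.15) overlapped between groups. Slc2a4rg-ps, named for a gene that in human encodes a regulator of glucose transporter transcription, had 351 and 467 reads in libraries labelled siZC3H4, against 572, 500 and 537 in siNT libraries. Its libraries labelled siZC3H4 lay below every siNT library, and -0.40 ± 0.17 (SE, limma adjusted p = 0.297) did not pass.

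No pseudogene fell in the main limma fit or in edgeR, and the lowest fold changes were those of H2-Bl and Nlrp5-ps. With replicate numbers as a block, limma called H2-Bl, Nlrp5-ps, Slc2a4rg-ps and Ube2d-ps lower, as given in the last section. H2-Bl, a class I major histocompatibility gene typed as polymorphic, had 166 and 221 reads in the libraries labelled siZC3H4, against 491, 250 and 307 in the siNT libraries. The groups did not overlap, but siNT replicate 1 was far above the other two (-0.80 ± 0.28, SE, limma adjusted p = 0.198). Among the fits without a replicate block, DESeq2 and limma without siNT replicate 3 called it lower. Nlrp5-ps, a copy of the maternal oocyte gene Nlrp5, had 80.4 and 79.3 reads, against 146, 117 and 116 in siNT libraries (-0.65 ± 0.22). Ube2d-ps, named for the E2 ubiquitin-conjugating enzymes, had 204 and 255 reads, against 305, 278 and 349 in siNT libraries (-0.44 ± 0.19, limma adjusted p = 0.303). Nlrp5-ps and Ube2d-ps lay lower in every library labelled siZC3H4 than in any siNT library, without passing in the main limma fit, edgeR or DESeq2.

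By gene type, the 3 that rose were all among the 27 unprocessed members (11.1%, against 5.08% of all members and 2.22% of all genes). Yet the median log2 fold change of that type was 0.03, and 15 of 27 lay above 0. The 19 transcribed processed members had a median of 0.25 with 15 above 0, none passing (4 higher and 0 lower at an unadjusted p under 0.05 by limma, 0 by edgeR or DESeq2). The 6 polymorphic members had a median of 0.57 with 5 above 0, and the 6 unitary members 0.08 with 3 above 0. None of these 12 passed in limma, with 5 higher and 2 lower at an unadjusted p under 0.05. edgeR called 1 unitary member, Thap6, higher. DESeq2 called Thap6 higher and the polymorphic H2-Bl lower. Over all 12482 genes, 52.5% lay above 0, and 1367 were higher and 548 lower at that unadjusted p. The single processed pseudogene, Gm8225, had 11.9 and 21 reads in libraries labelled siZC3H4, against 32, 11.3 and 12.8 in siNT libraries.

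The median fold change was higher among members with few reads than among those with many, while C920006O11Rik and Gm1070, with the largest changes, were among those with many. The 23 members with a mean under 50 reads had a median log2 fold change of 0.65, and in 12 of them both libraries labelled siZC3H4 lay above every siNT library (52.2%, against 33.8% of all genes and 52.1% of lncRNAs under 50 reads). None of the 23 passed in limma, edgeR or DESeq2, and limma gave 7 higher and 0 lower at an unadjusted p under 0.05, against 262 higher and 21 lower of 1300 genes and 109 and 1 of 315 lncRNAs under 50 reads. The 36 members with a mean of 50 or more had a median of 0.02, with the 3 that rose among them (8.33%, against 2.19% of all such genes). Over all genes the same split gave medians of 0.28 and 0.004, and over lncRNAs 0.52 and 0.35. Gm5590, Gm4032 and Mfsd4b3-ps reached the mean of 10 only through libraries labelled siZC3H4 (siNT means 9.33, 8.41 and 9.84). All of them count among the 12, so the values of this set rest in part on the filter. Genes under 50 reads had the higher median in each of these sets, and the part of depth in this was not tested.

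Some members start at a promoter that is read in both directions. A gene of the table on the opposite strand started upstream within 1 kb, at 36 to 424 bases, of 13 pseudogenes. These 13, picked out after the files were seen, had a median log2 fold change of 0.45, and 12 of 13 (92.3%) lay above 0. Among all genes with a divergent gene 58.4% lay above 0, and among such lncRNAs 90.2%. Gm5590 and Gm4032 count among the 12 and reached the mean of 10 only through libraries labelled siZC3H4 (siNT means 9.33 and 8.41). The values of these 13 thus rest in part on the filter. The other 46 members had a median of 0.04 and held the 3 that rose (6.52%, against 1.81% of all genes without a divergent gene). Of the 13, none passed in limma, 5 were higher and 0 lower at an unadjusted p under 0.05, and edgeR and DESeq2 called 1 each, Thap6. Among all 1895 genes with a divergent gene, 322 were higher and 52 lower at that p, and among 245 such lncRNAs 114 and 0. In 6 of 13 pseudogenes (46.2%) both libraries labelled siZC3H4 lay above every siNT library, against 26.4% of all genes and 60.4% of lncRNAs with a divergent gene. The same split gave medians of 0.55 and 0.33 for lncRNAs with and without a divergent gene, and 0.02 and 0.003 for protein-coding genes.

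The genes that shared these promoters had lower fold changes than the pseudogenes in most pairs, a difference that was not tested. The median log2 fold change of the 13 partners was 0.09, and none passed. The pseudogene had the higher value in 10 of 13 pairs, counting the Gm5590 and Zfp939 pair from each side. Both genes of that pair are members, so it enters the count both as a higher and as a lower pseudogene. The partner median is the value of Zfp939, itself a pseudogene here. Nme6, a nucleoside diphosphate kinase gene whose start lies 36 bases from that of 3000002C10Rik in the table, had 640 and 634 reads in libraries labelled siZC3H4, against 543, 583 and 627 in siNT libraries (0.13 ± 0.14, SE). Rchy1, an E3 ubiquitin ligase gene beside Thap6, was at 0.46 ± 0.20, and Aplf, a DNA repair gene beside E230015B07Rik, at 0.18 ± 0.25. In RefSeq, Nme6 overlaps 3000002C10Rik and Rchy1 overlaps Thap6, so reads of these pairs may be shared. Rbm8a, which encodes a core protein of the exon junction complex, was at -0.24 ± 0.13 while 6330549D23Rik, on the other side of its promoter, was at 0.42 ± 0.16. 6330549D23Rik had 336 and 339 reads in libraries labelled siZC3H4, against 240, 263 and 253 in siNT libraries, which did not overlap. Mphosph8, a gene of heterochromatin silencing, was at -0.13 ± 0.13 and Gm4032 at 0.67 ± 0.39. Gm4032 and Gm5590 count among the 10 pairs with the higher pseudogene, and their siNT means of 8.41 and 9.33 lay below the filter of 10.

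**Figure D3:**
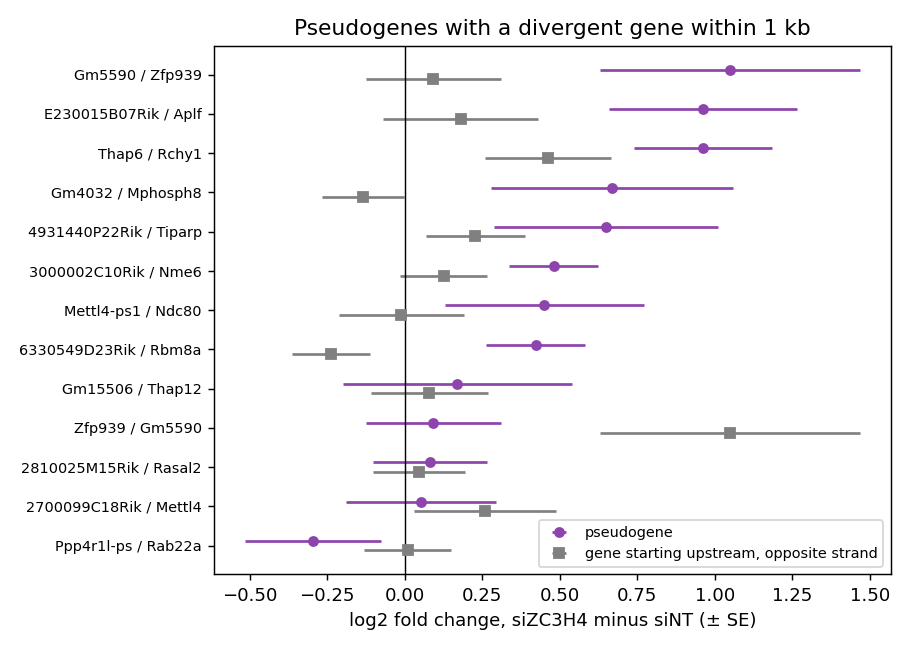
limma log2 fold change, siZC3H4 minus siNT, with bars of 1 SE, for the 13 pseudogenes (circles) that have a gene starting upstream on the opposite strand within 1 kb and for that gene (squares); Gm5590 and Zfp939 appear from both sides. The pseudogene lies to the right of its partner in 10 of 13 rows.

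A pseudogene at such a promoter occupies the place where an upstream antisense RNA (uaRNA), the short-lived transcript that leaves a promoter against the direction of the gene, would be counted. The deposited uaRNA table held none of the 13 partners and none of the 59 members as a host gene. It held 10 of 1634 protein-coding genes with a divergent gene within 1 kb (0.612%), and 5791 of the 9961 without one (58.1%). No uaRNA region of that table was therefore assigned to these 13 pseudogenes or their partners. Whether uaRNA regions of other genes overlap the 13 was not tested.

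Parent genes gave a comparison within each library that depends on the depth factors only through the pseudocount. Of 12 members with a symbol ending in -ps, with or without a number, 5 had a parent of the same stem in the table, and 7 had none: Nlrp5-ps, Ppp4r1l-ps, Mfsd4b3-ps, Zfp133-ps, Ube2d-ps, Slc2a4rg-ps and Zfp862-ps. A further 5 pairs were added from RefSeq names and synonyms after the files were seen. The 10 pairs covered 9 pseudogenes and 9 parents, and the other 50 members had no parent here. For each pair, log2((pseudogene + 1) / (parent + 1)) was compared over libraries by a two-sided exact permutation test, which with 2 against 3 libraries has 10 splits and cannot go below p = 0.1. None of the parents passed in limma. Reads from stretches that are identical in a pseudogene and its parent can be assigned to either or to none, so the levels of such pairs are uncertain.

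Pisd, which makes phosphatidylethanolamine in mitochondria, has a pair of pseudogene members that differed in level. Pisd-ps2 had 278 and 232 reads in the libraries labelled siZC3H4, against 224, 230 and 210 in the siNT libraries. Pisd had 623 and 569 reads, against 626, 688 and 623. The log2 ratio of Pisd-ps2 to Pisd was -1.16 and -1.29 in libraries labelled siZC3H4, against -1.48, -1.58 and -1.56 in siNT libraries. It was the only one of the 10 ratios whose groups did not overlap, a difference of 0.32 (pooled SD 0.07, exact permutation p = 0.1, the smallest possible; 0.75 after adjustment over 10 pairs). Per kilobase, Pisd-ps1 stood above its parent in both groups, at 3.35 times Pisd in libraries labelled siZC3H4 and 3.03 times in siNT libraries. Its log2 ratio differed by 0.15 with overlapping groups (exact permutation p = 0.3).

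The retrotransposed copies Rpl37rt, Gm1821 and Ppp1ccb, and the copies of Spr, Mettl4 and Gpr137b, had fewer reads per kilobase than their parents in both groups. Rpl37rt stood at 0.190 of Rpl37 per kilobase in both groups, with a log2 ratio difference of -0.01 (exact permutation p = 1). Gm1821, which RefSeq also names Ubb-ps, stood at 0.416 of the ubiquitin gene Ubb in siZC3H4 and 0.384 in siNT libraries. Ppp1ccb stood at 0.0189 of Ppp1cc, a catalytic subunit of protein phosphatase 1, in siZC3H4 and 0.0163 in siNT libraries. Spr-ps1 stood at 0.0911 of Spr, the sepiapterin reductase of tetrahydrobiopterin synthesis, in siZC3H4 and 0.0993 in siNT libraries. Mettl4-ps1 stood at 0.273 of Mettl4, an adenine methyltransferase gene, in siZC3H4 and 0.237 in siNT libraries. Gpr137b-ps stood at 0.159 of Gpr137b, a lysosomal membrane protein gene, in siZC3H4 and 0.133 in siNT libraries. The exact permutation p of these last 5 pairs lay between 0.5 and 0.6, and their groups overlapped. Adjusted over all 10 pairs, every exact p was between 0.75 and 1.

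H2-Bl stood above both classical class I genes to which RefSeq ties it. Per kilobase it was at 5.10 times H2-D1 in libraries labelled siZC3H4 and 8.47 times in siNT libraries, and at 2.13 times H2-K1 in libraries labelled siZC3H4 and 2.34 times in siNT libraries. H2-K1 had 147 and 174 reads in the libraries labelled siZC3H4, against 291, 264 and 233 in the siNT libraries, which did not overlap (-0.71 ± 0.19, SE, limma adjusted p = 0.0982). H2-D1 had 80.4 and 68.8 reads, against 81, 84.3 and 77.6 in siNT libraries (-0.12 ± 0.23, SE). The log2 ratio of H2-Bl to H2-D1 differed by -0.68 and that to H2-K1 by -0.10, with overlapping groups (exact permutation p = 0.3 and 0.7). The H2 class I genes are similar copies that vary between strains, and these cells carry CAST and 129 alleles, so which copy a read came from can be uncertain.

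**Figure D4:**
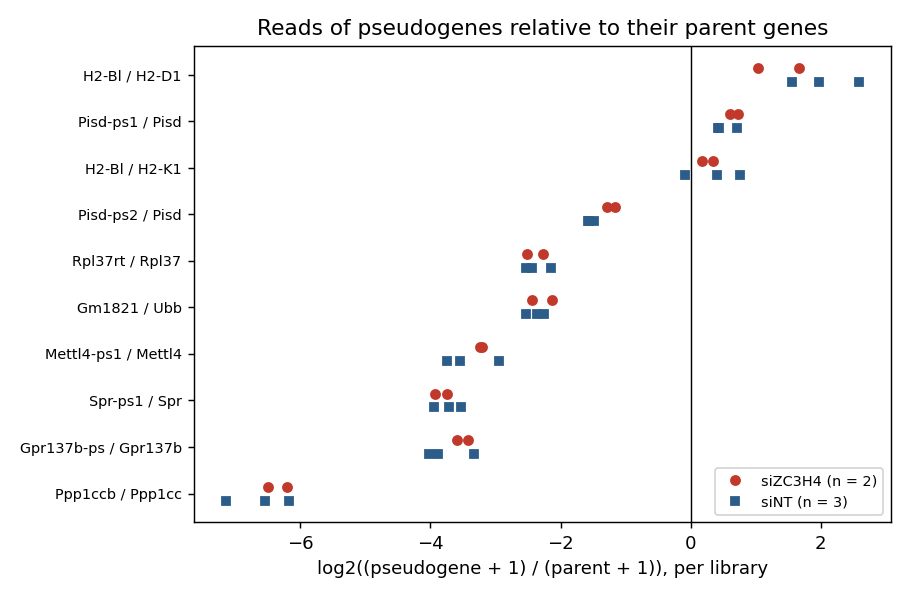
log2((pseudogene + 1) / (parent + 1)) in each library for the 10 pairs, sorted by the siNT mean; circles are libraries labelled siZC3H4 and squares siNT libraries. Circles and squares are apart for Pisd-ps2 and Pisd, where siZC3H4 lies higher by 0.32, and overlap in the other 9 pairs.

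Genes of RNA decay were examined as a background to the pseudogene RNAs. The nuclear exosome, which degrades short-lived nuclear RNA, and its adaptors were all in the table. Of these 15 genes none rose and none fell in limma, edgeR or DESeq2, none had an unadjusted p under 0.05, and their median log2 fold change was 0.01. Values ran from -0.27 for Exosc8, a subunit of the exosome ring, to 0.34 for Exosc9, another. Of 10 genes of nonsense-mediated decay, which removes many mRNAs with early stop codons, 9 were in the table. None of the 9 passed or had an unadjusted p under 0.05, and their median was 0.03, with Upf1, the central helicase, at 0.08 ± 0.13. Over all 12482 genes tested, 2.22% rose, 0.144% fell and 1915 had an unadjusted p under 0.05 in limma. With lists this short, the absence of calls does not show that these genes stayed unchanged.

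Zinc finger genes form large families of copies, and some pseudogenes here belong to them. The 6 members with Zfp or Zkscan symbols had a median log2 fold change of 0.04, against 0.03 for the other 331 genes so named, of which 4 rose. None of the 6 passed in limma, edgeR or DESeq2, and 1 was higher at an unadjusted p under 0.05. Only 3 members overlapped a table gene on the same strand (Rpl37rt with Acads, Zfp783 with Zfp956 and Mettl4-ps1 with Spdya), where a read could belong to either. A further 9 overlapped a gene on the opposite strand, with a median of 0.41. The library kit keeps strand, but no source used here says whether the counting used it, so for those 9 the 2 genes cannot be told apart. The 47 members that overlapped no other gene of the table, most of the 59, held all 3 that rose. These are 6.38% of the 47, against 5.08% of all members and 2.22% of all genes tested. RefSeq places other genes over some of the 47, such as Rchy1 over Thap6, Nme6 over 3000002C10Rik and Zbtb46 over Slc2a4rg-ps. Reads of such members are uncertain in the same way.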

How the data were processed

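TT-seq libraries were grouped by the siRNA in their labels. The submitters' processing notes name mm10 and dm6 as builds and, without order or settings, cutadapt 1.14, featureCounts, STAR and DESeq2. The authors deposited a table of depth-normalised signal per gene over exons, and one for uaRNAs. With 1 depth factor per library (siZC3H4 replicates 2 and 3: 1.767 and 1.046; siNT replicates 1, 2 and 3: 1, 1.15 and 1.172) 100% of values were whole reads within 0.01. No source used here says how the factors were obtained. The table's transcript length is used for values per kilobase.

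limma 3.58.1 in R 4.3.3 (lmFit, eBayes with trend, no block) was run on log2(value + 1), a scale that understates changes of low genes, and tested on simulated data. The alternatives were edgeR 4.0.16 and DESeq2 1.42.0 on the recovered reads, other scalings, pseudocounts and filters, a replicate block, and leaving out each library. Named pseudogenes were those past the threshold, the 10 highest means, the 10 largest changes, those with a parent, and 3 at either side of the mean of 10; others were named after their values were seen. Members and lists were chosen with earlier results of these data known. Intervals of sampling error were not used; p-values rest on the spread of 5 libraries.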

Additional observations from a re-analysis of the deposited data

How the results depend on the processing

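The count of 3 changed pseudogenes was 5 by DESeq2 and 14 with replicate numbers 2 and 3 as a replicate block (10 higher, 4 lower; 12.3% of all genes were higher and 6.65% lower in that fit), the 4 lower being H2-Bl (adjusted p = 0.00397), Nlrp5-ps (0.0434), Slc2a4rg-ps (0.0304) and Ube2d-ps (0.0174) in limma, and 0 to 5 when single libraries were left out: 0, 2 and 5 on leaving out siNT replicate 1, 2 or 3, and 1 and 2 on leaving out siZC3H4 replicate 2 or 3. It was 4 with edgeR and with the median of ratios, 3 with TMM, with pseudocounts of 0.5 and 5 and without members that overlap a gene on the same strand, and 2 with no filter and with a mean of 50 or more. The numbers share no stated batch, and the deviations of replicates 2 and 3 from their group means correlated at 0.62 between the groups, over 12482 genes. The median log2 fold change of the members, 0.09, was 0.021 with a mean of 50 or more and 0.19 with the replicate block, and 0.057 to 0.22 when single libraries were left out; the 23 members under 50 reads are not in the first of these. Zc3h4 differed by 0.95 to 1.07 when single libraries were left out, with adjusted p of 0.0549 on leaving out siNT replicate 1 and 0.0578 on leaving out siZC3H4 replicate 2. The parent pairs apart numbered 1, and 2 to 4 without single libraries, where fewer libraries are compared. Over all genes 277 rose and 18 fell, against 308 and 30 by edgeR, 529 and 146 by DESeq2, 1530 and 830 with the block, 38 and 0 with no filter, 2 and 0, 165 and 11, and 676 and 138 on leaving out siNT replicate 1, 2 or 3, and 10 and 0, and 80 and 3 on leaving out siZC3H4 replicate 2 or 3. For single members over 14 alternatives, 753 values kept their side of the threshold. Of these, values past it in neither fit stayed within 1 SE of the main value. Values past it in both fits were compared by direction only. A further 24, past it in neither fit, moved by 1 SE or more, 17 passed newly and 9 were lost. C920006O11Rik passed in 13 of 14, Gm1070 in 12 and 1810014B01Rik in 8. Causes were not tested.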
